A study of Mus musculus with 3 samples.

Results

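The genes described here encode the soluble factors that start and extend translation. A gene was taken if its symbol began with Eif followed by a digit 1 to 6, or with Eef followed by 1 or 2. Pabpc1 and Pabpc4 were added, and the Eif2ak kinases, Eif2s3y and names marked as pseudogenes were left out. This gave 69 genes of 55211, of which 68 are annotated as protein-coding. Expression was measured by RNA sequencing of polyadenylated RNA in 3 separately grown cultures of Ba/F3, a mouse haematopoietic cell line that depends on interleukin-3 and received the recombinant murine cytokine in every culture. The cultures form 1 group with no treatment contrast, so the data describe levels and the spread between cultures. The labels name no clone, passage or genetic change.

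Translation begins when eIF2, a GTPase that carries the initiator tRNA, joins the small ribosomal subunit with eIF1, eIF1A, eIF5 and the large complex eIF3. The cap-binding protein eIF4E, the scaffold eIF4G and the helicase eIF4A bring the mRNA to this complex, and the poly(A)-binding proteins contact eIF4G from the tail. Elongation then depends on eEF1A, which delivers aminoacyl-tRNA, on the eEF1B exchange complex that recharges it, and on eEF2, which moves the ribosome by a codon. Many of these mRNAs, with those of ribosomal proteins, carry a pyrimidine tract at their start (terminal oligopyrimidine, TOP) through which mTOR controls their translation.

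The gene reads summed to 32044889, 33880292 and 37180883 in cultures 1, 2 and 3. Levels are given as CPM (reads per 1000000 gene reads) within a gene, and as TPM (reads per kilobase of merged annotated exons, scaled to 1000000) where genes are compared. A gene without a read lies under 0.0936, 0.0885 and 0.0807 CPM in cultures 1, 2 and 3, the level of 3 reads, which covers counting error only. Of the markers checked, Il3ra, Csf2rb, Csf2rb2 and Ptprc were all detected (1 CPM or more in every culture). The same held for 0 of 3 fibroblast, 0 of 3 epithelial and 0 of 3 T and NK markers. Of these, the fibroblast marker Col1a1 lay just under the threshold, at 0.967, 0.738 and 0.914 CPM. Nkg7, of the T and NK markers, had 0.499, 0.325 and 0.511 CPM. Of the B lineage markers reported here, Cd79a and Cd79b were detected, and Ebf1, Rag1, Rag2, Igll1 and Dntt had no read. Among 4 neutrophil and monocyte markers, 3 were detected, led by Mpo at 69.9 ± 2.06 CPM (SD, n = 3).

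Translation factor mRNAs took 3.29%, 3.39% and 3.40% of all gene reads in cultures 1, 2 and 3, with Wilson 95% intervals of 3.28% to 3.30%, 3.39% to 3.40% and 3.40% to 3.41%. These intervals cover counting error within a library only. The mean share was 3.36 ± 0.0634% (SD, n = 3), where the SD is the spread between cultures. The 14 genes with Eef symbols held 1.76 ± 0.0521% of reads and the 53 with Eif symbols 1.21 ± 0.00927%, so the smaller elongation set yielded more reads. Eef1a1, Eef2 and Pabpc1 together made up 53.1 ± 0.414% of the reads of all members. Eef1a1 ranked 1, Eef2 ranked 2 and Pabpc1 ranked 12 among all genes by read yield (mean CPM).

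Detection, set at 1 CPM or more in every culture, was met by 62 of 69 members (89.9%). The same threshold was met by 19.9% of all genes and by 45.9% of protein-coding genes. A mean of at least 100 CPM was reached by 42 members and a mean of at least 1000 CPM by 6. The 7 members below the threshold were Eef1a2, Eif5a2, Eif4e1b, Eif4ebp3, Eif4a3l1, Eif4a3l2 and Eif2c5. Apart from Eif2c5, an annotated lincRNA whose symbol carries an older name stem of the Argonaute genes, each of them had at most 2 reads in any culture. Eif2c5 had 25, 41 and 26 reads, or 0.780, 1.21 and 0.699 CPM, and passed 1 CPM in culture 2 alone.

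**Figure D1:**
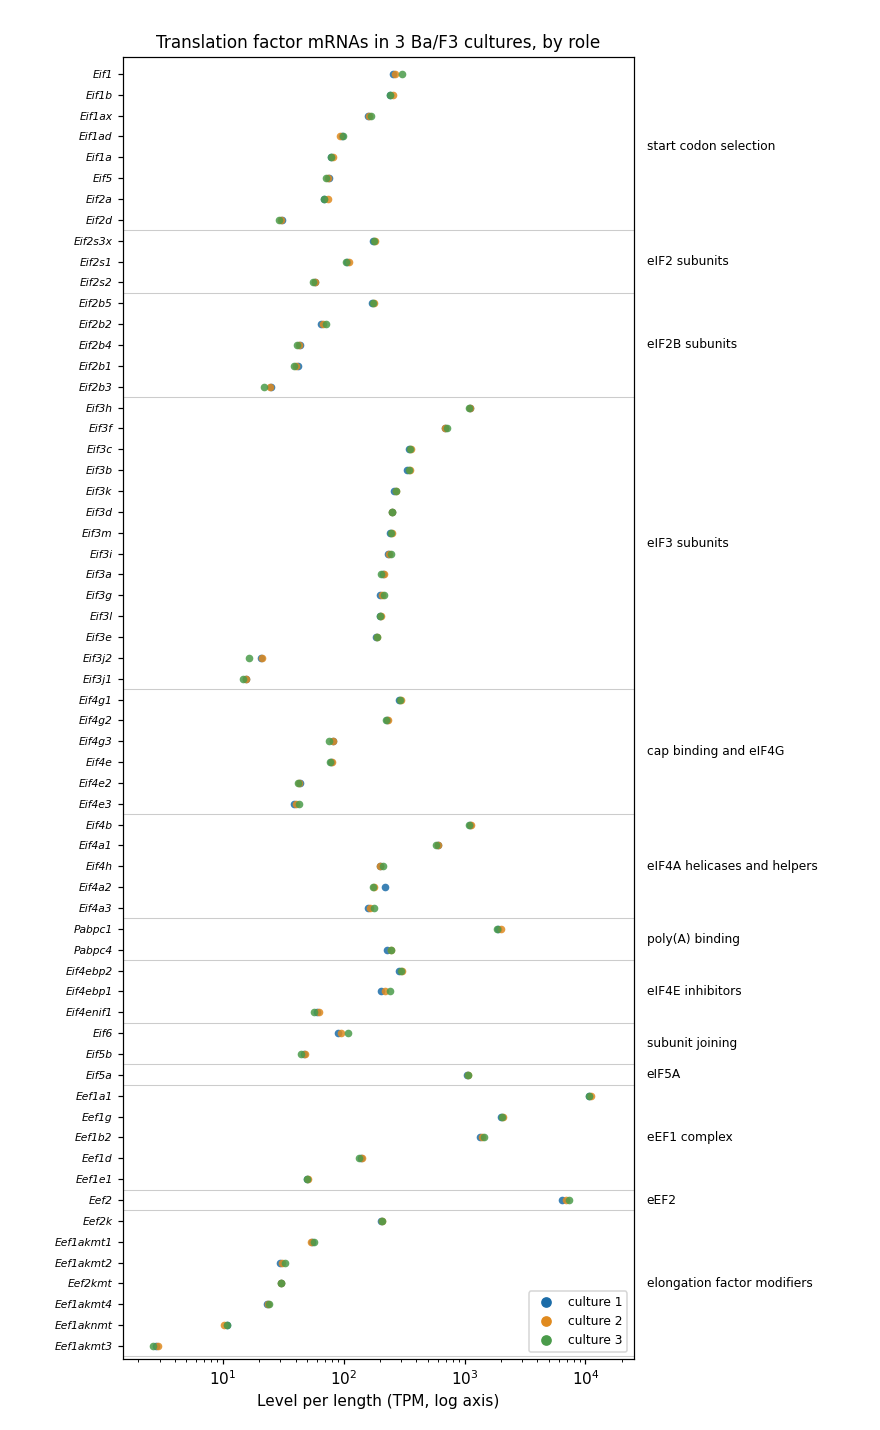
Level per length (TPM, log axis) of the 62 detected members in cultures 1, 2 and 3 (1 point per culture), grouped by role. The points of a gene lie close together on a scale that runs from Eef1akmt3 at a mean of 2.80 TPM to Eef1a1 at a mean of 10771 TPM.

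Elongation factor 1A was represented by a single gene of its pair. Eef1a1 (chr9:78478449-78489151, minus strand, GRCm38) encodes the form found in most tissues and Eef1a2 (chr2:181147653-181157014, minus strand) the form of muscle and nerve. Eef1a1 had 7624, 7859.8 and 7662 CPM in cultures 1, 2 and 3, whereas Eef1a2 had 1, 0 and 1 reads. With Eef1a2 set at 3 reads in each library, Eef1a1 was at least 68079.6-fold higher per length, a bound that the other 2 lengths raised. The first 60 coding bases of both are shown because they let the reads of this pair be told apart; capitals mark the 11 positions that differ.
Eef1a1: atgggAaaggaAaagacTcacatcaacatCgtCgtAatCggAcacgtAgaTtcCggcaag
Eef1a2: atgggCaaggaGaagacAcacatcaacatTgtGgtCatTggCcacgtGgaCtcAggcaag
Over 1386 aligned coding bases the genes were 80.1% identical, and the longest identical run was 23 bases, shorter than the 50-base reads. No 50-base window of an annotated Eef1a2 transcript occurred in a transcript of another gene, so the near absence of its reads does not involve a shared stretch of that length. Eef1a1 itself shared 40.4% of its windows with 21 other genes, and the one sharing most, the processed pseudogene Gm13456, had 9.27 ± 0.187 CPM (SD, n = 3).

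The same one-sided pattern held for eIF5A, which helps ribosomes through difficult peptide bonds and is the protein known to carry the modified lysine hypusine. Eif5a (chr11:69916714-69921958, minus strand) had 708, 728 and 727 CPM, and Eif5a2 (chr3:28781276-28798846, plus strand) had no read in any culture. Against 3 reads in each library, Eif5a was at least 15997-fold higher per length by merged exons and at least 7515-fold higher with coding length. Coding bases 130 to 177 are shown because they hold the lysine codon that is turned into hypusine, in capitals.
Eif5a: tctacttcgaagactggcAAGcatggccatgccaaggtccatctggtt
Eif5a2: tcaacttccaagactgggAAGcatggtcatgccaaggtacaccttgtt
The codon is the same in both genes, while the coding sequences were 73.2% identical over 459 aligned bases with no identical run above 14 bases. Eif5a2 shared no window of 50 bases with another gene. Of the enzymes that make hypusine, deoxyhypusine synthase Dhps averaged 21.5 ± 1.25 TPM and deoxyhypusine hydroxylase Dohh 8.75 ± 1.52 TPM, against 1056 ± 16.2 TPM for Eif5a (SD, n = 3 each).

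The eEF1 complex spanned a wide range of levels per length. Eef1a1 averaged 10771 ± 223 TPM, the exchange complex subunits Eef1g and Eef1b2 averaged 2037 ± 26.3 and 1392 ± 54.0 TPM, and the exchange subunit Eef1d averaged 138 ± 4.38 TPM (SD, n = 3 each). Eef1e1, which encodes a small protein of the multi-tRNA synthetase complex, averaged 50.2 ± 0.746 TPM (SD, n = 3). No neighbouring ranges in this order overlapped. Eef1a1 stood 5.29 ± 0.0738 times above Eef1g and Eef1b2 stood 10.1 ± 0.671 times above Eef1d (SD, n = 3), or 5.81 times with transcript length. With lengths from the longest coding sequence the order of Eef1g and Eef1b2 turned round, at a ratio of 0.774 ± 0.0267, and Eef1g shares 44.2% of its windows with other genes.

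The mRNA of eEF2, the translocase, was the next most abundant among the factors. Eef2 had 6119, 6527 and 6967 CPM in cultures 1, 2 and 3. Eef1a1 exceeded Eef2 per length in each culture, by 1.66, 1.61 and 1.47 times, and by a mean of 2.04 with transcript length and 2.20 with coding length. With 3 cultures, an exact two-sided sign-flip test of such a ratio cannot go below p = 0.25, so these orders are descriptions.

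The 7 enzymes that modify elongation factors were all detected. Eef2k, the kinase that inhibits eEF2, had 435, 439 and 443 CPM and averaged 206 ± 1.37 TPM, which put Eef2 33.2 ± 1.84 times above it per length (SD, n = 3), and 12.6 times with coding length. The methyltransferases lay lower, between Eef1akmt3 at 2.80 ± 0.129 TPM and Eef1akmt1 at 55.1 ± 1.95 TPM (SD, n = 3). Eef2kmt, which methylates eEF2, averaged 30.3 ± 0.164 TPM, and Eef1aknmt, which methylates eEF1A at its first residue and at a lysine, averaged 10.7 ± 0.308 TPM (SD, n = 3 each).

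eIF2 and its exchange factor eIF2B were expressed as complete sets. Eif2s1, Eif2s2 and Eif2s3x encode the alpha, beta and gamma subunits of eIF2, and phosphorylation of the alpha subunit turns eIF2 into an inhibitor of eIF2B. Eif2s3x had 193, 199 and 197 CPM in cultures 1, 2 and 3. Per length, Eif2s3x averaged 179 ± 3.14 TPM, Eif2s1 107 ± 2.53 TPM and Eif2s2 57.1 ± 1.09 TPM (SD, n = 3), with no overlap between their ranges. With coding length Eif2s1 came first, at 174 TPM against 149 TPM for Eif2s3x, while Eif2s2 was lowest under all 3 lengths. Eif2s3x shares 34.6% of its windows with other genes, all of them with the pseudogene Gm2223, which had 0.212 ± 0.0549 CPM (SD, n = 3). Eif2s3y, the copy of the gamma subunit gene on the Y chromosome that the rule leaves out, had 103, 83.2 and 80.6 CPM, highest in culture 1.

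Among the 5 eIF2B subunits, Eif2b5, which encodes the catalytic epsilon subunit, was the highest. It had 127, 131 and 132 CPM and averaged 174 ± 3.50 TPM (SD, n = 3). Eif2b2 followed at 67.8 ± 3.65 TPM, Eif2b4 at 42.4 ± 1.56 TPM and Eif2b1 at 40.4 ± 1.58 TPM, and the ranges of Eif2b4 and Eif2b1 overlapped (SD, n = 3 each). Eif2b3 was lowest at 23.8 ± 1.53 TPM (SD, n = 3), a place that Eif2b4 took with coding length, at 20.1 TPM. Eif2b5 led under every length used, although by less with coding length, where its mean was 65.0 TPM. The median eIF2 subunit exceeded the median eIF2B subunit 2.53 ± 0.0799 times per length (SD, n = 3), and 2.87 and 4.19 times with transcript and coding length.

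The eIF2 kinases and the genes around them were present as well. Of 8 genes listed for eIF2 phosphorylation and its reversal, all 8 were detected and 3 differed between cultures by the test described below, a share close to the 32.8% of all genes tested. Ppp1r15b, a phosphatase subunit that restores eIF2, was highest per length at 128 ± 2.01 TPM, followed by the kinase Eif2ak2 (PKR) at 51.4 ± 1.58 TPM (SD, n = 3 each). The other kinases averaged 37.7 ± 1.78 TPM for Eif2ak1 (HRI), 27.9 ± 0.988 TPM for Eif2ak4 (GCN2) and 23.3 ± 0.569 TPM for Eif2ak3 (PERK) (SD, n = 3 each). None of the 4 passed the chi-square test of a difference between cultures, with adjusted p from 0.0697 to 0.745.

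**Figure D2:**
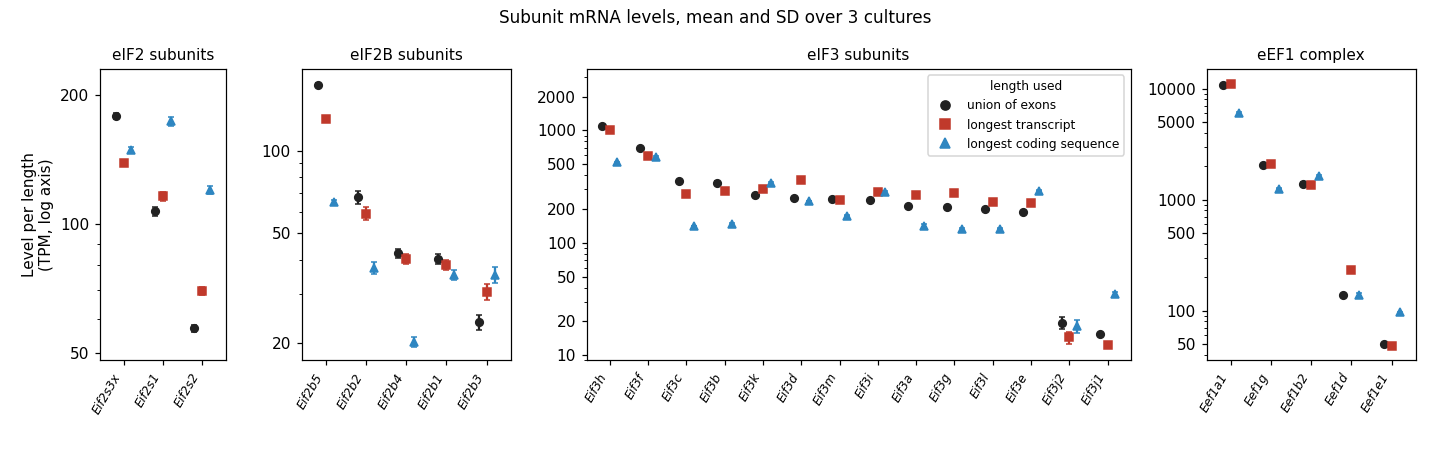
Level per length (TPM, log axis) of the detected subunits of eIF2, eIF2B, eIF3 and the eEF1 complex, as mean and SD over 3 cultures, with 3 definitions of gene length. Eif2b5 leads its complex under each length, Eif3j1 and Eif3j2 lie lowest among the eIF3 genes under each length, and Eef1g and Eef1b2 change places with coding length.

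eIF3, the scaffold on the small subunit, was the largest set, with 14 genes, all detected. Eif3h led per length at 1099 ± 16.4 TPM, followed by Eif3f at 699 ± 18.5 TPM (SD, n = 3 each). In reads the order was the other way, at 509, 514 and 505 CPM for Eif3h and 574, 565 and 602 CPM for Eif3f. These 2 genes encode the MPN-domain subunits of the complex, and they were its top pair by merged exons and by longest transcript. With coding length Eif3f was above Eif3h, at 577 against 519 TPM, and both were still above Eif3k, next at 341 TPM. Eif3h shares 20.3% of its windows with other genes, mostly with the pseudogene Gm6552, which had at most 10 reads in a culture. The other 10 genes apart from the eIF3j pair lay between Eif3e at 187 ± 3.27 TPM and Eif3c at 354 ± 3.95 TPM (SD, n = 3). Within that band the ranges of Eif3c and Eif3b, of Eif3m and Eif3i, of Eif3a and Eif3g, and of Eif3g and Eif3l overlapped. The median of the 12 genes stood 2.32 ± 0.0520 times above the median eIF2 subunit (SD, n = 3), and 2.42 and 1.37 times with transcript and coding length.

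Eif3j1 and Eif3j2, which encode the loosely bound subunit eIF3j, were the lowest eIF3 genes. Eif3j1 had 26.2, 25.9 and 24.9 CPM and Eif3j2 had 14.1, 14.2 and 11.4 CPM in cultures 1, 2 and 3. Their coding sequences were 100% identical over 783 aligned bases, and 50.9% of Eif3j1 windows and 91.8% of Eif3j2 windows occurred in other genes. How multi-matching reads were counted is not stated in these sources, so both the split between these genes and their summed level are uncertain. Their ratio per length was 0.798 ± 0.0799 and turned to 1.97 with coding length (SD, n = 3).

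The genes that select the start codon were all 8 detected. Eif1, which guards against wrong start codons, led by merged exons at 275 ± 23.2 TPM and its relative Eif1b followed at 246 ± 7.94 TPM (SD, n = 3 each). With coding length Eif1ax led at 615 TPM, above Eif1 at 526 and Eif1b at 253 TPM. In reads Eif1 had 154, 160.4 and 183 CPM and Eif1b had 78.4, 82.1 and 78.3 CPM. Their ratio per length was 1.06, 1.05 and 1.25 in cultures 1, 2 and 3, thus highest in culture 3, and its mean of 1.12 became 1.63 and 2.09 with transcript and coding length. Eif1ax, one of the pair of eIF1A genes, had 238, 246 and 256 CPM, against 93.6, 97.0 and 95.2 CPM for Eif1a, a ratio of 2.05 ± 0.0704 per length (SD, n = 3), and of 1.44 and 4.57 with transcript and coding length. Eif5, the GTPase activator of eIF2, averaged 73.3 ± 1.87 TPM, and Eif2a, which despite its symbol is no subunit of eIF2, averaged 70.5 ± 2.61 TPM (SD, n = 3 each). Eif2d, a factor that can place tRNA without eIF2, had the lowest level per length of the group, with 64.8, 63.8 and 62.2 CPM.

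In the cap-binding group, the mRNA of the scaffold Eif4g1 was more abundant than that of the cap-binding protein by merged exons. Eif4g1 averaged 289 ± 5.32 TPM and Eif4e 78.8 ± 1.95 TPM, a ratio of 3.67 ± 0.0954 (SD, n = 3). That order depended on length, since with coding length the ratio was 0.606. Eif4g1 had 594, 615 and 612 CPM, Eif4g2 had 658, 672 and 659 CPM, and Eif4g3 had 260.2, 259.6 and 244 CPM. Eif4g2 encodes a scaffold that lacks the eIF4E-binding region. Eif4g1 exceeded Eif4g2 by 1.28 ± 0.0178 times per length, but the ratio was 0.519 with coding length (SD, n = 3). Eif4g1 exceeded Eif4g3 under all 3 lengths, by 3.62 ± 0.172, 3.44 and 2.63 times. Eif4e had 136, 138 and 133 CPM, against 93.6, 91.7 and 90.2 CPM for Eif4e2, which encodes a cap-binding protein known as a translational repressor. Per length the mean ratio of Eif4e to Eif4e2 was 1.85, but 1.03 with transcript length and 1.77 with coding length. Eif4e3 averaged 40.5 ± 1.81 TPM (SD, n = 3), and Eif4e1b, known from oocytes, had no read in any culture.

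The eIF4E-binding proteins block the docking of eIF4G until mTOR phosphorylates them. The mRNAs of Eif4ebp1 and Eif4ebp2 were each more abundant than that of Eif4e under all 3 lengths. Eif4ebp1 (chr8:27260329-27276674, plus strand) had 129, 137 and 154 CPM and Eif4ebp2 (chr10:61428491-61452661, minus strand) had 478, 503 and 499.5 CPM in cultures 1, 2 and 3. Their summed level stood 6.59 ± 0.426 times above Eif4e by merged exons (SD, n = 3), 5.71 times with transcript length and 8.48 times with coding length. The third gene, Eif4ebp3, had 1, 2 and 2 reads, and 65.5% of its windows lie in an overlapping gene, Maskbp3, which had 0.610 ± 0.0152 CPM (SD, n = 3). The coding stretch of the eIF4E-binding motif is shown because it is what the expressed inhibitors share; capitals mark the codon of its tyrosine and those of its closing pair of residues (coding bases 148 to 186 of Eif4ebp1 and 151 to 189 of Eif4ebp2).
Eif4ebp1: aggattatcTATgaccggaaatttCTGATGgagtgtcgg
Eif4ebp2: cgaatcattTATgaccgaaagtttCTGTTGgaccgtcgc
The coding sequences were 66.7% identical over 348 aligned bases. Eif4ebp1 was below Eif4ebp2 in each culture, at 0.709, 0.720 and 0.813 times per length, and at a mean of 0.291 times with coding length. Eif4enif1, which carries eIF4E into the nucleus, averaged 109.8 ± 3.99 CPM (SD, n = 3).

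The helicase group was led by Eif4b, a cofactor of eIF4A, with 1407, 1456 and 1413 CPM. Eif4b stood above Eif4a1 under all 3 lengths, by 1.87 ± 0.0514, 1.58 and 1.28 times, and above the related cofactor Eif4h by 5.48, 3.12 and 1.79 times (SD, n = 3). Eif4a1 had 755, 742 and 726 CPM, and Eif4a2, which encodes the second cytoplasmic eIF4A, had 334, 272 and 270.4 CPM. Eif4a1 exceeded Eif4a2 per length by 2.79 times in culture 1, and by 3.36 and 3.31 times in cultures 2 and 3. With transcript and coding length the mean ratio was 2.19 and 2.57. Eif4a1 shares 28.4% of its windows with other genes, mostly with the pseudogene Eif4a-ps4 at 0.966 ± 0.229 CPM (SD, n = 3).

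Eif4a3 (chr11:119288363-119300089, minus strand) encodes the helicase of the exon junction complex and had 97.3, 101 and 110.3 CPM. Its relatives Eif4a3l1 (chr6:136327539-136329983, plus strand) and Eif4a3l2 (chr6:116551141-116552502, plus strand) had 0, 0 and 0 reads and 1, 0 and 0 reads. The first 60 coding bases show where reads can separate the 3 genes; capitals mark the 8 positions at which they are not all the same.
Eif4a3: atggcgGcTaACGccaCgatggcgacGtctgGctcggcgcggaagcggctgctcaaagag
Eif4a3l1: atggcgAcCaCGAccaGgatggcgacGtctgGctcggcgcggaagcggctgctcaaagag
Eif4a3l2: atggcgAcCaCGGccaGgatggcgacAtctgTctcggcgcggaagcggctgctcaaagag
Eif4a3 was 96.2% identical to Eif4a3l1 and 96.8% identical to Eif4a3l2 over 1233 coding bases, with identical runs of up to 119 and 151 bases. A 50-base read inside those runs matches more than 1 gene, and 47.5% and 63.4% of the windows of Eif4a3l1 and Eif4a3l2 occur elsewhere, so their near absence is less certain than that of Eef1a2 and Eif5a2.

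Among the poly(A)-binding proteins, Pabpc1 had 3572, 3729.6 and 3527 CPM and Pabpc4 had 264, 281 and 284 CPM. Pabpc1 exceeded Pabpc4 by 8.05 ± 0.358 times per length (SD, n = 3), and by 14.2 and 13.6 times with transcript and coding length. Pabpc4 shared 54.8% of its windows with other genes, mostly with the pseudogene Gm10110, which had 3.13 ± 0.376 CPM (SD, n = 3). Of the 8 relatives and partners listed, 4 were detected, led by the Pabpc1 inhibitor Paip2 at 154 ± 0.692 TPM and Paip1, a stimulator of translation, at 73.2 ± 1.86 TPM (SD, n = 3 each). Pabpc1l had 0.874, 0.856 and 0.834 CPM, below the threshold, and Pabpc2, Pabpc5 and Pabpc6 had no read. For subunit joining, Eif5b, the GTPase that joins the ribosomal subunits, had 132, 133 and 125 CPM, and Eif6, which keeps free large subunits from joining, had 69.8, 73.6 and 84.2 CPM.

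The remaining lists around the pathway were expressed with 1 exception. All 9 listed regulators of mTOR, eIF4E and eIF4A were detected, led by Larp1, a repressor of TOP mRNAs, at 166 ± 1.25 TPM and by the eIF4E kinase Mknk2 at 126 ± 7.90 TPM (SD, n = 3 each). All 5 listed initiation helpers were detected, led by the helicase Ddx3x at 220.0 ± 7.87 TPM and the ribosome recycling factor Abce1 at 206 ± 4.99 TPM (SD, n = 3 each). Of 5 termination and rescue genes, 4 were detected, led by the release factors Etf1 at 290.2 ± 6.96 TPM and Gspt1 at 157 ± 5.01 TPM, while Gspt2 had no read (SD, n = 3 each). All 7 selenocysteine and mitochondrial factors were detected, led by the mitochondrial elongation factors Gfm1 at 80.7 ± 3.15 TPM and Tufm at 63.4 ± 2.87 TPM (SD, n = 3 each). Over all lists, 39 of 44 genes were detected, and 18 of the 40 tested differed between cultures, against 32.8% of all genes tested and 45.0% of those with at least 1000 reads.

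A list of 10 members known as TOP mRNAs was used: Eef1a1, Eef1b2, Eef1d, Eef1g, Eef2, Eif3e, Eif3f, Eif3h, Eif4b and Pabpc1. It may not be complete, so the other members are not taken as free of TOP mRNAs. The listed genes held 70.0 ± 0.337% of the reads of all members (SD, n = 3). The other 59 members together held 1.01 ± 0.00790% of all gene reads (SD, n = 3). RefSeq promoters (GRCm38.p6) were searched on the gene's strand for C followed by at least 5 pyrimidines, beginning within 10 bases of the annotated start. Such a tract was found in 19.2% of all 32851 promoters, in 15 of 65 promoters matched to 51 members (23.1%), and in 3 of the 5 TOP genes with a promoter entry. Those 3 are shown as 30 bases around the start, with the tract in capitals. Eif3f and Eif4b are on the plus strand of chromosomes 7 and 15, and Eef1a1 is on the minus strand of chromosome 9. Relative to the annotated start, the tracts begin at -5 for Eef1a1, -4 for Eif3f and 10 for Eif4b. None begins at the annotated first base, and whether these stretches are the TOP tract of the mRNA was not tested.
Eef1a1: tggctccgCCCTCTTCCCgagggtggggga
Eif3f: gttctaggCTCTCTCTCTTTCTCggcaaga
Eif4b: ccgtcggacgccgcgccaCCCCCTCgcgct
The share among members was close to that among all promoters, and annotated starts may lie some bases from those used in Ba/F3.

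The only comparison that the design allows is between the cultures. Whether the reads of the 3 libraries differed by more than counting noise was asked with a chi-square test against Poisson noise. It was run on all 13141 genes that averaged 10 reads or more, with Benjamini-Hochberg adjustment over all of them. It compares these libraries and not conditions. Of 63 members tested, 32 differed (50.8%) at an adjusted p under 0.05, against 32.8% of all genes tested. Most members are abundant, where small differences pass the test, and among genes with a mean of at least 1000 reads the counts were 31 of 55 members (56.4%) against 45.0% of all genes.

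The differences themselves were small. The median ratio of the highest to the lowest culture was 1.05 over the 55 members with at least 1000 reads, against 1.07 over all 6479 such genes. The median coefficient of variation beyond counting noise was 1.95% in members and 2.74% in all genes. A ratio above 1.1 was seen in 11 of 61 members with a mean of at least 10 CPM, against 36.4% of all such genes, and a ratio above 1.2 in 3 members (4.92%) against 12.8%. These counts were not matched for depth, and counting noise alone widens the ratio in genes with fewer reads. At least 1000 reads were reached by 55 of the 61 members, but by 6479 of the 8827 genes. The counts therefore do not by themselves show that members varied less.

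**Figure D3:**
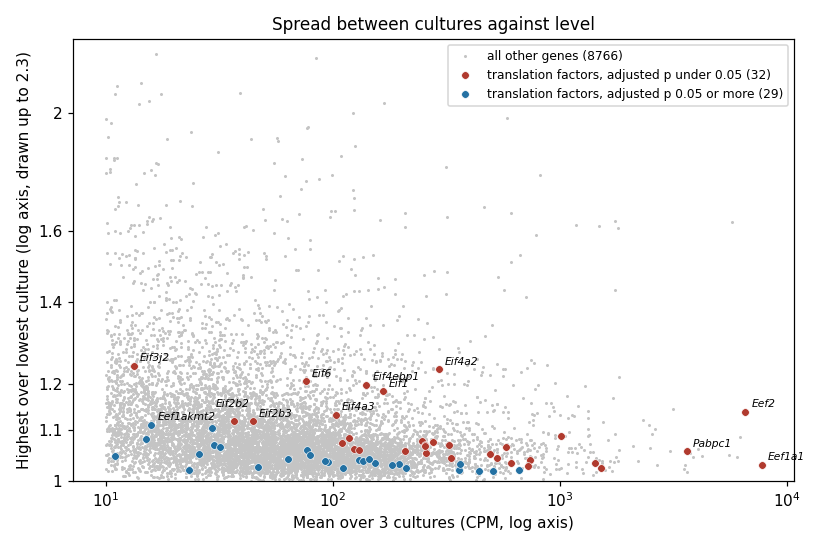
Ratio of the highest to the lowest culture (log axis) against mean level (CPM, log axis) for 61 members with a mean of at least 10 CPM, coloured by adjusted p, over 8766 other genes in grey, of which 5 lie above the axis. Members with the highest levels pass the test at ratios near 1.03 (Eef1a1) to 1.14 (Eef2), and 3 members lie above 1.2.

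Most of the 10 members with the largest ratios were lowest in culture 1 and highest in culture 3. Among all genes that differed, at any ratio, 35.5% were lowest in culture 1 and 31.0% highest in culture 3. Among members that differed the shares were 65.6% and 46.9%. Eif6 had 69.8, 73.6 and 84.2 CPM in cultures 1, 2 and 3, a ratio of 1.21 (adjusted p = 1.2e-10 by the chi-square test). Eif4ebp1, at 129, 137 and 154 CPM, had a ratio of 1.2, and Eif1, at 154, 160.4 and 183 CPM, a ratio of 1.18 (adjusted p = 1.4e-17 and 6.9e-20, chi-square test). All of these were highest in culture 3 and lowest in culture 1, as were Eef2 with a ratio of 1.14, Eif4a3 with 1.13 (adjusted p = 1.5e-06), Eif2b2 with 1.12 (adjusted p = 0.0341) and Eef1akmt2 with 1.11, which did not pass the chi-square test (adjusted p = 0.347). The p of Eef2 was below the smallest number that the computation can hold. Eef2 and Eif4ebp1 still differed after leaving out any 1 culture, whereas Eif6, Eif1, Eif4a3 and Eif2b2 no longer passed the chi-square test without culture 3 (adjusted p = 0.217, 0.182, 0.407 and 0.698), and Eif2b2 also not without culture 1 (adjusted p = 0.164).

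Eif4a2, Eif3j2 and Eif2b3 had their lowest level in culture 3 but did not share 1 pattern. Eif4a2 was high in culture 1 alone, at 334 CPM against 272 and 270.4 CPM in cultures 2 and 3, a ratio of 1.23 (chi-square test, adjusted p = 1.5e-63). Without culture 1 its remaining difference did not pass (chi-square test, adjusted p = 0.886). Eif3j2 had a ratio of 1.24 (chi-square test, adjusted p = 0.00559), which rested on culture 3 (adjusted p = 0.971 without it), with the uncertainty of its shared sequence. Eif2b3, at 46.5, 45.5 and 41.6 CPM, had a ratio of 1.12 (chi-square test, adjusted p = 0.0166) and did not pass without culture 1 or 3 (adjusted p = 0.0860 and 0.756), nor with trimmed-mean or median-of-ratios scaling (adjusted p = 0.0770 and 0.0516). Culture 1 also had the highest share of mitochondrially encoded reads, at 1.68% against 1.31% and 1.04% in cultures 2 and 3. With totals that left out mitochondrially encoded genes, the 9 of these 10 members that differed still did.

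**Figure D4:**
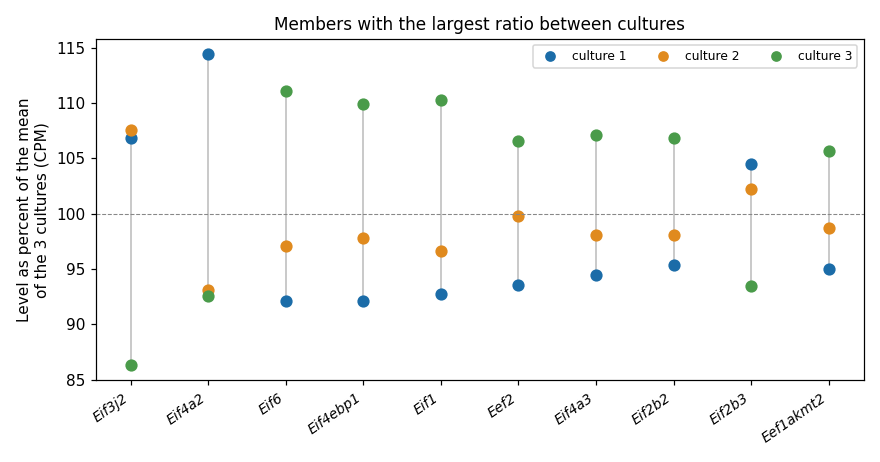
Level of the 10 members with the largest ratio between cultures, as percent of the mean of the 3 cultures (from CPM, 1 point per culture, axis not starting at 0). Eif6, Eif4ebp1, Eif1, Eef2, Eif4a3, Eif2b2 and Eef1akmt2 are lowest in culture 1 and highest in culture 3, while Eif4a2 stands high in culture 1 alone.

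Members that differed were mostly lowest in culture 1. Of the 63 tested, 21 both differed and had their lowest level in culture 1 (33.3%), against 11.6% of all genes tested. In culture 3 the same count was 10 (15.9%) against 13.8% of all genes. These shares include the higher rate of calls among members. Among those that differed, 21 of 32 members (65.6%) were lowest in culture 1, against 35.5% of all genes. The 35.5% is not matched for depth, since the share lowest in culture 1 was not taken over abundant genes alone. Direction also moved with depth: of all genes that differed, 50.5% were highest in culture 1, and 39.6% of those with at least 1000 reads. For members that differed these shares were 12.5% (4 of 32) and 12.9% (4 of 31). Eif3f was the 1 member that differed and was lowest in culture 2, against 7.33% of all genes. Culture 1 was also the most frequent lowest culture with other scalings, for 29 of 35 members that differed with trimmed-mean scaling, 30 of 36 with median-of-ratios scaling and 17 of 30 with totals that left out mitochondrially encoded genes. Among all genes that differed, 1528 of 4304 were lowest in culture 1 with the totals used here, 2227 of 4508 with trimmed-mean scaling, 2224 of 4508 with median-of-ratios scaling and 1360 of 4313 without mitochondrially encoded genes, so with both rescalings the share rose among all genes too. The median log2 deviation of culture 1 from the mean was -0.020 over the 55 abundant members and -0.006 over all abundant genes. The median over the TOP list was -0.018 in culture 1, 0.014 in culture 2 and 0.001 in culture 3.

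Counts by role rest on few genes of unequal depth and are descriptions, to be read against the 32.8% of all genes tested and the 45.0% of those with at least 1000 reads. In eIF2, 0 of 3 genes differed by the chi-square test, and among the elongation factor modifiers 0 of 7. Under trimmed-mean and median-of-ratios scaling Eif2s3x passed that chi-square test (adjusted p = 0.0319 and 0.0305), as did Eef2k (adjusted p = 0.00391 and 0.00934). In the helicase group 5 of 5 genes differed, with ratios from 1.04 for Eif4a1 and Eif4b to 1.23 for Eif4a2. Each of these 5 lost its call when at least 1 of the cultures was left out, Eif4h without culture 3 (chi-square test, adjusted p = 0.805) and Eif4b without culture 2 (adjusted p = 0.669). Eif4a1 lost it without culture 1 or 3 (chi-square test, adjusted p = 0.0942 and 0.182) and did not pass the chi-square test with trimmed-mean scaling (adjusted p = 0.408) or median-of-ratios scaling (adjusted p = 0.154). In eIF3, 7 of 14 genes differed, and their ratios ranged from 1.04 to 1.24, the latter for Eif3j2 with its shared sequence. Eif3c, Eif3d and Eif3e also passed with trimmed-mean and median-of-ratios scaling (chi-square test, adjusted p at most 0.0108 and 0.0373). Without culture 3, Eif3b and Eif3k were the only eIF3 genes that passed (chi-square test, adjusted p = 0.0130 and 0.0487). Pabpc1 and Eef1a1 differed at ratios of 1.06 and 1.03 (chi-square test, adjusted p = 4.4e-46 and 2.2e-29), both highest in culture 2. Without culture 2 Eef1a1 no longer passed (chi-square test, adjusted p = 0.173), while Pabpc1 did (adjusted p = 0.00905).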

How the data were processed

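RNA from 3 cultures of Ba/F3 was sequenced as 50-base single reads. The reads were aligned to GRCm38 with HISAT2, per the submitters' processing notes. Not given in these sources are the annotation release and the strand and multi-match settings of the counting. The authors deposited log2 values, log2(reads per 10000000 + 1), from which whole reads were recovered for 100% of entries within 0.01. In all 23001 rows with reads, the identifier and the symbol name different genes. Cultures 1 and 2 were therefore read by identifier and culture 3 by symbol and coordinates, matched through GENCODE M21 on GRCm38 (54916 rows by coordinates, all 69 members among them, 324 by symbol, 246 unmatched). A design for read counts was planned, and the test was run on the recovered reads. Members and lists were chosen with earlier results of these data known.

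Named with values were the highest member of each role, both genes of each paralog pair, every undetected member and the 10 largest ratios between cultures at a mean of 10 CPM or more. For the lists around the pathway these were the 2 highest and all undetected genes. Members of eIF2, eIF2B and eIF3 were described by range. Lengths were merged exons, with the longest transcript and longest coding sequence as alternatives. Transcript windows of 50 bases were searched exactly on both strands of all other annotated transcripts. The test was tried on simulated data. Python 3.11.15, numpy 2.4.6, pandas 2.3.3 and scipy 1.17.1 were used.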

Additional observations from a re-analysis of the deposited data

How the results depend on the processing

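Between 61 and 64 members were detected under every alternative run (thresholds of 0.5 and 5 CPM, detection in 1 culture, any read, other scalings, rows as deposited, and each culture left out). The count of members that differed between cultures was 32, and 35 and 36 with trimmed-mean and median-of-ratios scaling, of which 28 and 29 were shared with the 32. Leaving out a culture moved it to between 15 (without culture 3) and 27, with 18 without culture 1. The share of all genes tested that differed moved too, from 32.8% to 34.3% with either rescaling. It was 11.1%, 29.5% and 20.2% without cultures 1, 2 and 3. The share of reads was 2.97% on the rows as deposited, which pair different genes, against 3.36% after matching. The median member level was 127 TPM with the longest transcript, against 138 TPM by merged exons. With coding length the Eif4g1 to Eif4g2 ratio turned to 0.519 and the Eif3j1 to Eif3j2 ratio to 1.97. Other scalings moved the median detected gene by at most 0.018 (log2) in a culture. No paired analysis was possible because the samples form 1 group. Length dependence limits every comparison between genes, and shared sequence limits 13 members with over 20% of windows found elsewhere.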
